A study of Homo sapiens with 8 samples.

Results

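The genes described are the nuclear genes for subunits of respiratory complexes II, III, IV and V and for cytochrome c in HCT116 cells, a human colon cancer line. They were chosen by gene symbol from a written list of 40 symbols, and all 40 were found among the 55075 genes of the deposited count tables. Complex II was represented by 4 genes, complex III by 9, cytochrome c by 1, complex IV by 11 and complex V by 15. The rule of choice used no measured value, but the members were chosen with earlier results of these data known. All 40 passed the filter on low counts, with at least 566 reads in every library, and were tested among 17471 genes.

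Complexes III and IV pass electrons to oxygen and pump protons across the inner mitochondrial membrane, and complex V, the ATP synthase, uses the returning protons to make ATP. Complex II oxidises succinate and feeds electrons into the chain without pumping protons, and cytochrome c carries electrons between complexes III and IV. Most subunits are encoded in the nucleus and imported, while a few core subunits of complexes III, IV and V are made inside mitochondria from mitochondrial DNA. The transcription factors NRF1 and GABPA, an ETS family factor, and YY1 are known to act at promoters of many of these nuclear genes. Colon cancer cells in culture draw ATP from glycolysis as well as from this chain.

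RNA was sequenced from HCT116 cells that lack FBXW7 (KO), which picks the substrates of an SCF ubiquitin ligase, and from the wild-type (WT) line. Cells of both lines were heated at 42 °C for 1 h, and were collected either after a further 2 h at 37 °C (recovery) or upon the heat treatment (heat shock). The 4 groups, KO recovery, KO heat shock, WT recovery and WT heat shock, held 2 libraries each. All 4 groups were therefore heated, and unheated cells were not analysed here. The alleles of the KO, its number of clones and whether replicates were separate cultures were not stated in the labels. The p-values below therefore measure only how far these libraries spread, which may be technical.

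The promoters of 4 members are shown because they hold the searched letters in different arrangements: UQCR11 of complex III, COX5B and COX8A of complex IV, and SDHD of complex II, which moved in the opposite direction to most members in KO cells. Each run is the 150 bases before the RefSeq transcription start on GRCh38.p14, written 5′ to 3′ on the strand of the gene. Capitals mark letters searched for on both strands: TGCGCA, letters bound by NRF1, CCGGAAG, an ETS site, and AAGATGG, a YY1 site, with matches that run past the start left in lower case.
UQCR11 (chr19:1605463-1605612, minus strand): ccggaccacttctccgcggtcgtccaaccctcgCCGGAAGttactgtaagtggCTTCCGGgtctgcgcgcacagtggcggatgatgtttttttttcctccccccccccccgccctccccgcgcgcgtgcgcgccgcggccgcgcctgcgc
COX5B (chr2:97645912-97646061, plus strand): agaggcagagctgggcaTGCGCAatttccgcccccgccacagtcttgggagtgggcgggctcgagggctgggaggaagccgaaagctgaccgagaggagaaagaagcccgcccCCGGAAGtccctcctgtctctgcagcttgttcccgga
COX8A (chr11:63974470-63974619, plus strand): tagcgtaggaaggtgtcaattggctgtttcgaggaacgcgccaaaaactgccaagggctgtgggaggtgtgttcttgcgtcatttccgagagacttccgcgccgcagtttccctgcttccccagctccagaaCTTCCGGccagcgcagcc
SDHD (chr11:112086723-112086872, plus strand): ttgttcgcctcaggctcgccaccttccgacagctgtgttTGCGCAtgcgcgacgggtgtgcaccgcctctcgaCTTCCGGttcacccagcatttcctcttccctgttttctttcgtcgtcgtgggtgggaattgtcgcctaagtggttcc

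RefSeq promoters from 250 bases before to 50 bases after the start were matched for 32 of the 40 members. The ETS letters were found in 14 of these 32 promoters (43.8%), against 10.7% of 27305 promoters in the table. The NRF1 letters were found in 9 (28.1%), against 8.42% of all promoters, and the YY1 letters also in 9 (28.1%), against 6.06%. At least 1 of the 3 was present in 20 members (62.5%), against 22.2% of all promoters. SDHD and COX5B hold the same pair of NRF1 and ETS letters, although their transcripts moved in opposite directions in KO cells. A match of letters is a description and shows no binding.

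Total counts ranged from 15507896 to 34387618 per library, and the members took 0.538 to 0.779% of them. FBXW7 was counted at 14.01 and 13.8 CPM (reads of the gene per 1e+06 reads of the scaled library) in KO recovery and 17.4 and 14.9 CPM in KO heat shock, against 23.0 and 21.7 CPM in WT recovery and 33.5 and 31.4 CPM in WT heat shock. Its transcript was lower in KO than in WT cells, but counts cover the whole gene, so reads from outside a deleted part are included. Each deposited table pairs a recovery and a heat shock column, and which is which rests on the order of names in the table; were it the other way in a line, the signs of that line's changes would turn. Replicates correlated at r = 0.991 to 0.995 across genes and no pair was as close as counting noise alone would leave it: chi-square over its degrees of freedom was 8.23 in KO recovery, 4.91 in KO heat shock, 2.43 in WT recovery and 19.0 in WT heat shock. The epithelial markers EPCAM (247 to 339 CPM) and KRT8 (677 to 1199 CPM) were present in all 8 libraries, the colon marker LGALS4 was at most 0.122 CPM, and the fibroblast gene LUM and the T cell gene CD3E had no count. COL1A1, another fibroblast marker, was at 6.25 to 9.83 CPM, while COL1A2 and DCN were at or near 0. In bulk RNA, fewer cells of a type and less RNA per cell cannot be told apart, and CPM gives each gene's share of the library and not RNA per cell.

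Per kilobase of transcript, the highest mean levels over the 8 libraries were those of COX4I1, the regulatory subunit 4 of complex IV (476 CPM per kb), and ATP5B, the catalytic beta subunit of the ATP synthase (439 CPM per kb). ATP5H, COX8A and ATP5G2 followed at 383, 379.7 and 374 CPM per kb, and their order was not tested. Levels also moved between groups, with COX8A at a mean of 168 CPM per kb in KO heat shock and 495 CPM per kb in KO recovery. The lowest level was that of UQCRFS1, the Rieske iron-sulfur protein of complex III, at 15.7 CPM per kb. SDHA, SDHD and COX7A2L lay between 51.5 and 61.0 CPM per kb. Genes of 1 complex thus differed widely, as UQCRB stood at 337 CPM per kb in the same complex as UQCRFS1.

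The first question was how these genes changed from heat shock to recovery in cells without FBXW7. In KO cells 31 of 40 members rose and 3 fell, with 6 not past an adjusted p of 0.05 (edgeR quasi-likelihood test, Benjamini-Hochberg over all genes tested). Over all genes tested, 20.6% rose, 21.1% fell and 41.8% passed in either direction. The median log2 change of the members was 0.71, beside −0.02 for all genes. At least a 2-fold rise was called for 11 members, where 4.26% of all genes met that rule, and no member fell 2-fold, beside 2.41% of all genes. Summed over the 40 members, levels were 8531 and 7700 CPM in KO recovery, against 5256 and 5387 CPM in KO heat shock. Both recovery libraries lay above both heat shock libraries in 32 members, below them in 4, and overlapped them in 4. The share of all genes tested that separate in this way was not computed, so these counts are only a description.

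**Figure D1:**
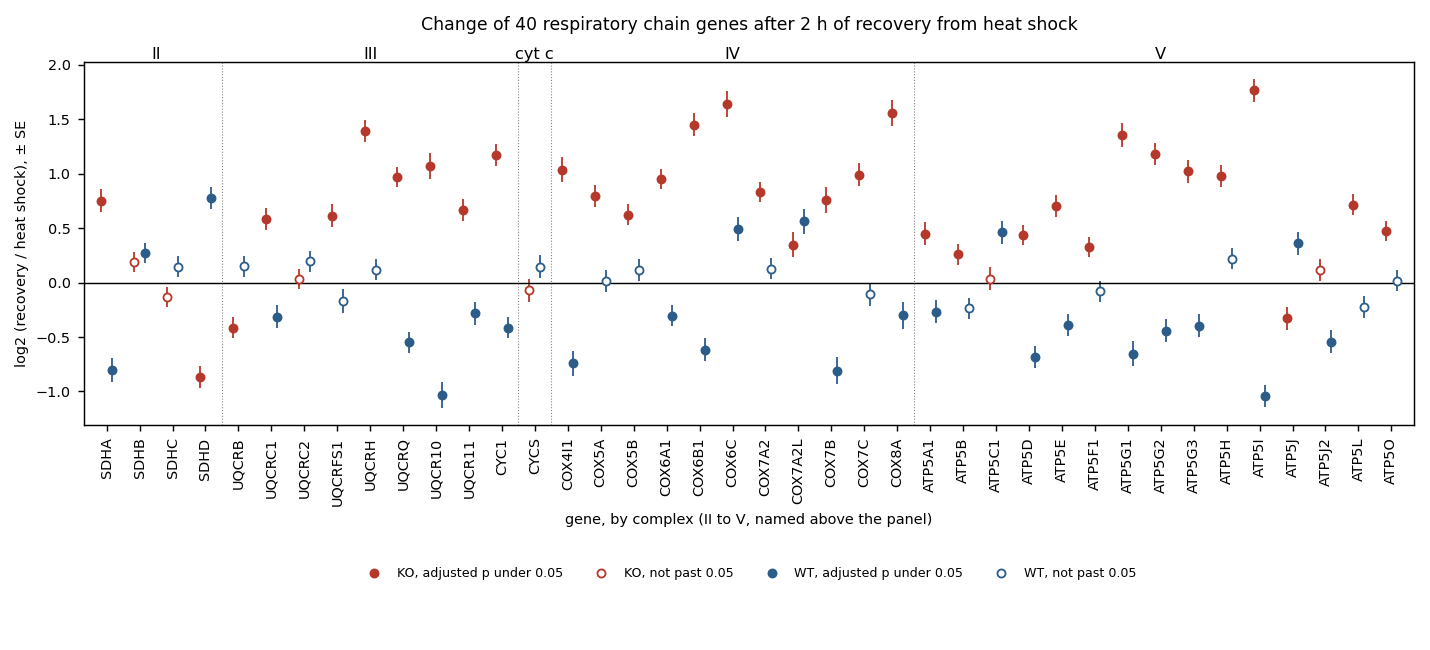
Log2 change of recovery over heat shock for each of the 40 genes, with standard errors, KO in red and WT in blue, ordered by complex. Filled points passed an adjusted p of 0.05; in KO cells 31 points are filled above 0, and in WT cells 19 are filled below 0.

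Complex II did not move as one. SDHA, the flavoprotein that oxidises succinate, had 179.5 and 154 CPM in KO recovery, against 96.5 and 101 CPM in KO heat shock. SDHD, one of the subunits that anchor the enzyme in the membrane, had 40.3 and 48.8 CPM in KO recovery, against 75.9 and 86.3 CPM in KO heat shock. The groups did not overlap for either gene, but SDHA was higher and SDHD lower at recovery. SDHA rose by 0.75 ± 0.10 (SE) on the log2 scale (edgeR adjusted p = 1.6e-05), and SDHD changed by −0.87 ± 0.10 (edgeR adjusted p = 1.3e-06). SDHB, the iron-sulfur subunit, and SDHC, the other anchor, had log2 changes of 0.19 ± 0.09 and −0.13 ± 0.09 that did not pass (edgeR adjusted p = 0.11 and 0.27).

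Of the 9 complex III genes, 7 rose and 1 fell in KO cells. CYC1, cytochrome c1, which hands electrons to cytochrome c, had 207 and 197 CPM in KO recovery, against 84.4 and 95.3 CPM in KO heat shock. UQCRH, the hinge protein beside cytochrome c1, had 177 and 163 CPM in KO recovery, against 66.9 and 62.5 CPM in KO heat shock. For both genes the recovery libraries stood far above the heat shock libraries, with log2 changes of 1.17 ± 0.10 for CYC1 and 1.39 ± 0.10 for UQCRH. UQCR10 and UQCRQ, small membrane subunits, rose by 1.07 ± 0.12 and 0.97 ± 0.09, and UQCR11 rose by 0.67 ± 0.10. UQCRB, which binds ubiquinone, was the one that fell, with 165 and 153 CPM in KO recovery and 214 and 211 CPM in KO heat shock, a log2 change of −0.42 ± 0.10. UQCRC2, a core subunit, was level at 188 and 182 CPM in KO recovery against 185 and 178 CPM in KO heat shock, and CYCS, cytochrome c itself, had a log2 change of −0.07 ± 0.11 that did not pass.

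All 11 complex IV genes rose in KO cells, with a median log2 change of 0.95. COX6C, one of the nuclear subunits around the catalytic core, had 132 and 121 CPM in KO recovery, against 42.9 and 38.4 CPM in KO heat shock. COX8A, a small membrane subunit, had 242 and 259.7 CPM in KO recovery, against 82.9 and 87.5 CPM in KO heat shock. COX6B1, which faces the intermembrane space where cytochrome c docks, had 294 and 236 CPM in KO recovery, against 93.9 and 99.1 CPM in KO heat shock. In each of these 3 genes the recovery libraries stood far above the heat shock libraries, with log2 changes of 1.64 ± 0.12, 1.56 ± 0.12 and 1.45 ± 0.11. COX4I1 rose by 1.03 ± 0.11, and the others by 0.62 to 0.99, apart from COX7A2L, a factor for joining complex III to complex IV, at 0.35 ± 0.11.

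Of the 15 complex V genes, 12 rose and 1 fell. ATP5I, the e subunit of the membrane part, had the highest change of all 40 members, with 181 and 148 CPM in KO recovery, against 48.0 and 48.2 CPM in KO heat shock. Its log2 change was 1.77 ± 0.11 (edgeR adjusted p = 3.3e-10). The genes ATP5G1, ATP5G2 and ATP5G3 encode the same proton-carrying c subunit after import. They rose by 1.36 ± 0.11, 1.18 ± 0.10 and 1.02 ± 0.11. The 5 genes of the catalytic F1 part changed less in log2 terms, with a median of 0.44 beside 0.85 for the 10 other genes; that difference was not tested. ATP5B of F1 had 972 and 909 CPM in KO recovery, against 762 and 809.7 CPM in KO heat shock, a log2 change of 0.26 ± 0.10. ATP5C1, the gamma subunit that turns inside F1, was level at 235 and 250.3 CPM in KO recovery against 243 and 231 CPM in KO heat shock. ATP5J, coupling factor 6 of the stalk, fell by 0.33 on the log2 scale, with 59.8 and 62.2 CPM in KO recovery and 73.2 and 80.0 CPM in KO heat shock.

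Some of these KO calls were lost with fewer libraries. Each recovery library was blocked with the heat shock library of its replicate, so leaving out either one removed the information of the pair. Fits without recovery or heat shock of the same replicate are therefore nearly the same fit and no separate checks. Fewer residual degrees of freedom were also left, so a call can be lost with little change in its estimate. This holds for the WT changes and the difference of responses below too. Of the 31 rises, 8 did not pass once a KO library was left out. ATP5B, ATP5F1 and COX7A2L were lost without any one of the 4 KO libraries (edgeR adjusted p = 0.0698 to 0.555), ATP5A1 and ATP5D without recovery or heat shock replicate 1 (0.138 to 0.253), and UQCRC1, COX7B and ATP5O without heat shock replicate 1 (0.0659 to 0.0785). Of the 3 falls, SDHD passed in every such fit, while UQCRB and ATP5J were lost without any one of the 4 KO libraries (0.0574 to 0.21). The log2 changes moved little in several of these fits: COX7A2L stood at 0.35 to 0.37, UQCRB at −0.46 to −0.37 and ATP5J at −0.36 to −0.29, while ATP5B ranged from 0.17 to 0.35 and COX7B stood at 0.41.

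**Figure D2:**
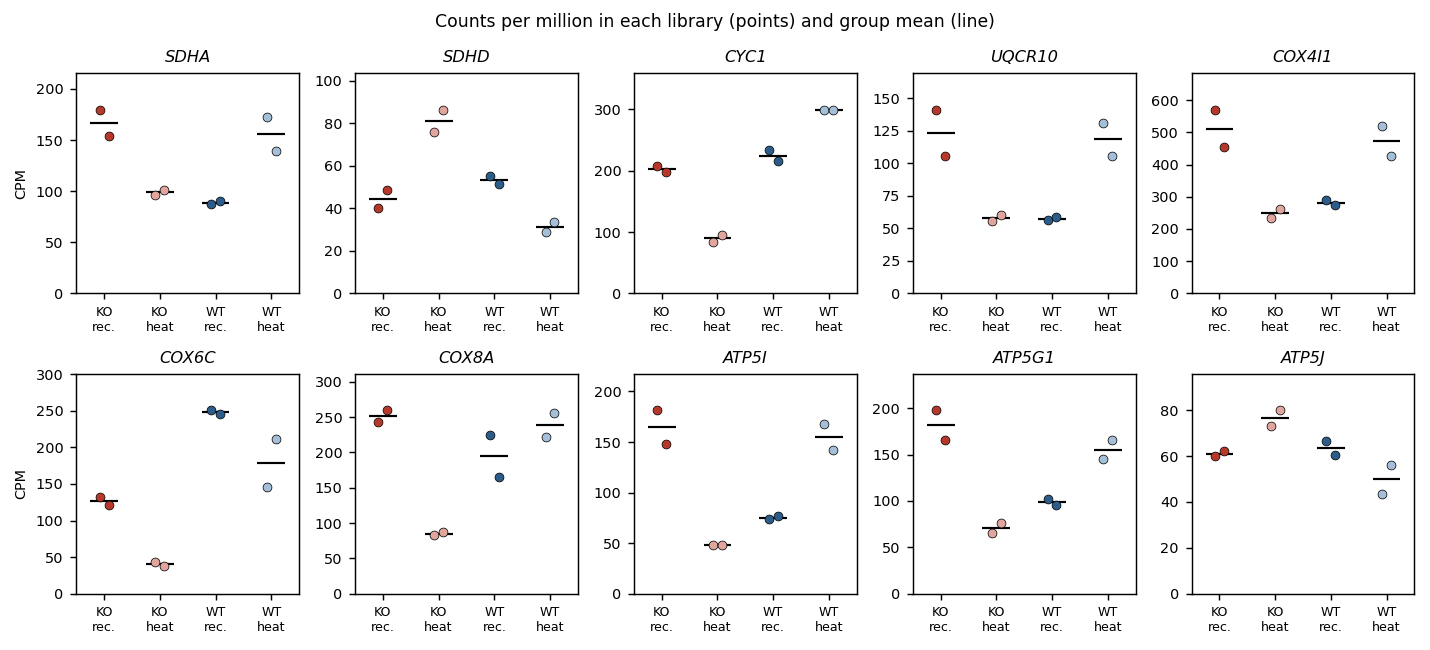
CPM of 10 genes in each of the 8 libraries, with the mean of each group as a line; axes start at 0. ATP5I, SDHA, UQCR10 and COX4I1 are high in KO recovery and WT heat shock and low in KO heat shock and WT recovery, while SDHD shows the reverse order.

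In WT cells the same comparison ran mostly the other way. Of the 40 members 6 rose, 19 fell and 15 did not pass, where 24.8% of all genes rose, 26% fell and 50.8% passed in either direction. The members' median log2 change was −0.23, beside 0.01 for all genes. No member rose 2-fold and 2 fell 2-fold, ATP5I and UQCR10, while 8.46% and 3.77% of all genes did so. Summed levels were 6615 and 6400 CPM in WT recovery, against 7342 and 7568 CPM in WT heat shock. Recovery libraries lay above the heat shock libraries in 12 members, below them in 21, and overlapped them in 7. Here too the share of all genes that separate in this way was not computed. With upper-quartile scaling, 58.99% of all called genes rose, against 48.8% with TMM scaling, the median of all genes stood at 0.10, and 10 members rose.

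SDHA had 87.6 and 90.2 CPM in WT recovery, against 172 and 139.5 CPM in WT heat shock, a log2 change of −0.80 ± 0.11. SDHD had 55.4 and 51.4 CPM in WT recovery, against 28.97 and 33.4 CPM in WT heat shock, a log2 change of 0.78 ± 0.10. Within complex II these 2 genes thus moved in opposite directions in WT cells too, each the reverse of its direction in KO cells. SDHB was the other complex II gene that rose, by 0.27 ± 0.09. No complex III gene rose and 5 of 9 fell. UQCR10 had 56.3 and 58.5 CPM in WT recovery, against 131 and 106 CPM in WT heat shock, and CYC1 had 233 and 216 CPM in WT recovery, against 298 and 299 CPM in WT heat shock. UQCRQ changed by −0.55 ± 0.09, while UQCRH had a log2 change of 0.12 ± 0.10 that did not pass.

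In complex IV 2 genes rose and 5 fell in WT cells. COX4I1 had 289 and 274 CPM in WT recovery, against 518 and 426 CPM in WT heat shock, a log2 change of −0.74 ± 0.11. COX7B, a small membrane subunit, changed by −0.81 ± 0.13 and COX6B1 by −0.62 ± 0.11. COX6C and COX7A2L rose, by 0.49 ± 0.11 and 0.56 ± 0.11. COX8A passed as lower at −0.30 ± 0.12, but its groups overlapped, with 225 and 165 CPM in WT recovery and 221 and 256 CPM in WT heat shock. In complex V 2 genes rose and 8 fell. ATP5I had 73.7 and 76.8 CPM in WT recovery, against 168 and 142 CPM in WT heat shock, a log2 change of −1.04 ± 0.10. ATP5D, the delta subunit of F1, and ATP5G1 followed at −0.68 ± 0.10 and −0.65 ± 0.11. ATP5C1 and ATP5J rose, by 0.46 ± 0.10 and 0.36 ± 0.11.

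Of the WT calls, 11 were lost in at least 1 fit without a library. Of the 6 rises, SDHD alone passed in every such fit. Without recovery or heat shock replicate 1 of WT, 1 member rose, and COX6C (log2 0.19 and 0.18), COX7A2L (0.25 and 0.24), ATP5C1 (0.26 and 0.25), ATP5J (0.08 and 0.08) and SDHB (0.22 and 0.22) did not pass; SDHB was also lost without any one KO library. Of the 19 falls, 6 were lost in at least 1 such fit. UQCR11, COX6A1, COX8A and ATP5G3 were lost without WT replicate 2 of either condition, UQCRC1 without WT replicate 1 of either condition, and ATP5A1 without WT replicate 1 of either condition or any one KO library, with its log2 change at −0.27 to −0.25 throughout; COX8A was also lost without either KO heat shock replicate.

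**Figure D3:**
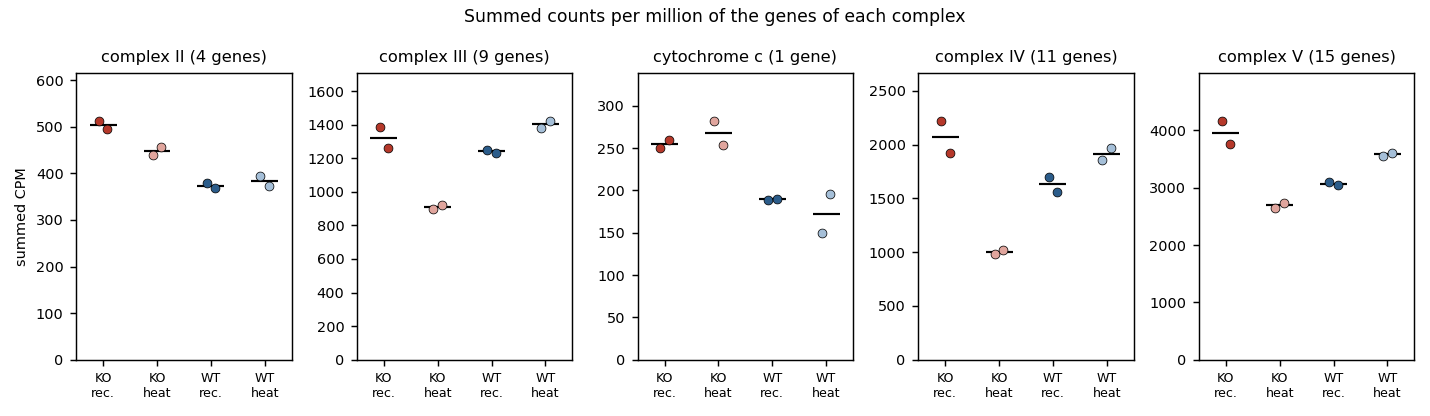
Summed CPM of the genes of each complex in each library (points) and group mean (line); axes start at 0. Complex IV stands at 2221 and 1927 CPM in KO recovery and 986 and 1022 CPM in KO heat shock, the widest gap in proportion among the complexes.

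Set side by side, 18 members rose in KO cells and fell in WT cells, and none fell in both. The limits on single calls given above apply to these counts. SDHD and ATP5J fell in KO cells and rose in WT cells. COX6C and COX7A2L rose in both, with the limits on the WT calls given above, and SDHC, UQCRC2 and CYCS passed in neither line. SDHC passed in both lines once transcript length and GC content were in the model, with the limit on its length given below. In that model ATP5J2 passed as lower in both lines, at −0.51 in KO recovery and −0.29 in WT recovery. Of the 18 members, UQCRC1, UQCR11, CYC1, COX6A1, COX8A and ATP5G2 did not then pass as lower in WT cells. UQCR11 and ATP5D did not then pass as higher in KO cells. Over the 40 members the log2 changes of the 2 lines, which share no library, had r = −0.538 and rho = −0.523, given as a description.

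The difference of the responses was tested directly, as the KO change minus the WT change. It was positive and past the threshold in 31 members and negative in 4, with 5 not past it, where 28.5% of all genes were positive, 27.8% negative and 56.3% either. The median difference was 0.92 on the log2 scale, beside −0.03 for all genes, and with upper-quartile scaling 0.81, beside −0.14. It was at least 2-fold in the positive direction for 18 members, beside 12.6% of all genes, and in the negative direction for 1, SDHD, beside 13.7%. ATP5I had the highest difference, 2.81 ± 0.15, followed by UQCR10 at 2.11 ± 0.17, COX6B1 at 2.07 ± 0.15 and ATP5G1 at 2.01 ± 0.16. All complex V genes passed in one direction or the other, 13 positive and 2 negative, and in complex IV 10 of 11 were positive. Were the columns of the WT tables the other way round, which was examined after seeing the data, the difference would be 0.72 for ATP5I, 0.04 for UQCR10, 0.83 for COX6B1 and 2.13 for COX6C, the highest of the 40. It would be positive in 34 members and negative in 6, with a median of 0.45, and the order of the members given here therefore depends on the column order. The 4 negative members were SDHD at −1.64 ± 0.14, ATP5J at −0.69 ± 0.15, UQCRB at −0.57 ± 0.14 and ATP5C1 at −0.43 ± 0.15. ATP5C1 was lost without replicate 1 of either KO group or either WT group. The count of negative members was 7 without WT replicate 2 of either condition. Among the positive members, ATP5B and ATP5O were lost without KO replicate 1 of either condition, and ATP5F1 without these or KO heat shock replicate 2.

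At heat shock most members were lower in KO than in WT cells. KO cells were lower in 30 members and higher in 7, with 3 not past the threshold, where 28.2% of all genes were lower, 27.4% higher and 55.6% either. The median log2 difference was −0.51, beside −0.03 for all genes. A difference of at least 2-fold was called lower in 9 members, beside 8.93% of all genes, and higher in 1, SDHD, beside 5.87%. All 11 complex IV genes were lower in KO cells. COX6C had 42.9 and 38.4 CPM in KO heat shock, against 146 and 212 CPM in WT heat shock, and a log2 difference of −2.14 ± 0.14. CYC1 had 84.4 and 95.3 CPM in KO heat shock, against 298 and 299 CPM in WT heat shock, a difference of −1.73 ± 0.09. ATP5I followed at −1.69 ± 0.11, COX8A at −1.49 ± 0.12 and UQCRH at −1.41 ± 0.10. In each of these genes both KO libraries lay below both WT libraries.

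The members higher in KO cells at heat shock were SDHB, SDHD, UQCRC2, CYCS, ATP5C1, ATP5J and ATP5J2. SDHD had 75.9 and 86.3 CPM in KO heat shock, against 28.97 and 33.4 CPM in WT heat shock, a log2 difference of 1.38 ± 0.11. CYCS, whose protein also triggers apoptosis when it leaves the mitochondrion, had 282 and 253 CPM in KO heat shock, against 149 and 196 CPM in WT heat shock, a difference of 0.63 ± 0.11. UQCRC2, ATP5C1 and ATP5J2 had small differences of 0.21 to 0.33. All 3 were lost without KO or WT heat shock replicate 1, which left 4 members higher, and UQCRC2 and ATP5C1 also without KO heat shock replicate 2, KO recovery replicate 1 or either WT recovery replicate. Of the lower calls, UQCRFS1 was lost without either KO heat shock replicate, KO recovery replicate 2 or WT heat shock replicate 2, ATP5D without KO heat shock replicate 1, and COX5B without KO heat shock replicate 2. The log2 differences of ATP5D and COX5B in those fits, −0.33 and −0.30, were close to −0.35 and −0.32 with all libraries.

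At recovery the order of the lines was the other one for most members. KO cells were higher in 25 members and lower in 3, with 12 not past the threshold, where 31.8% of all genes were higher, 31.3% lower and 63.1% either. At least a 2-fold difference was called higher in 2 members, beside 8.51% of all genes, and lower in none, beside 14.9%. The median log2 difference was 0.38, beside −0.01 for all genes. With upper-quartile scaling it was 0.22, beside −0.18 for all genes; 38.1% of all called genes were then higher, against 50.4% with TMM scaling, and 8 members were lower. ATP5I had 181 and 148 CPM in KO recovery, against 73.7 and 76.8 CPM in WT recovery, a difference of 1.13 ± 0.11. UQCR10 had 141 and 106 CPM in KO recovery, against 56.3 and 58.5 CPM in WT recovery, a difference of 1.10 ± 0.13. ATP5J2, a small subunit of the membrane part, differed by 0.99 ± 0.11, SDHA by 0.91 ± 0.11 and UQCRQ by 0.90 ± 0.09. No gene of complex V was lower in KO cells, and 10 of 15 were higher.

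The 3 members lower in KO cells at recovery were COX6C, UQCRB and COX7A2L. COX6C had 132 and 121 CPM in KO recovery, against 251 and 245 CPM in WT recovery, a difference of −0.97 ± 0.13. COX6C and COX7A2L were thus lower in KO cells under both conditions. SDHB, CYCS and ATP5J2 were higher in KO cells under both conditions, ATP5J2 with the limit at heat shock given above. CYCS had 250.2 and 259 CPM in KO recovery, against 189 and 189.9 CPM in WT recovery. Of the 25 higher members, COX7A2, COX7C, COX8A, ATP5A1 and ATP5L were lost without 1 or more of the recovery libraries: each but COX8A without KO replicate 1, COX8A without KO replicate 2, COX7A2 and ATP5L without either WT replicate, and COX7C and COX8A without WT replicate 2. These comparisons share libraries with the recovery comparisons and are no independent evidence of them.

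**Figure D4:**
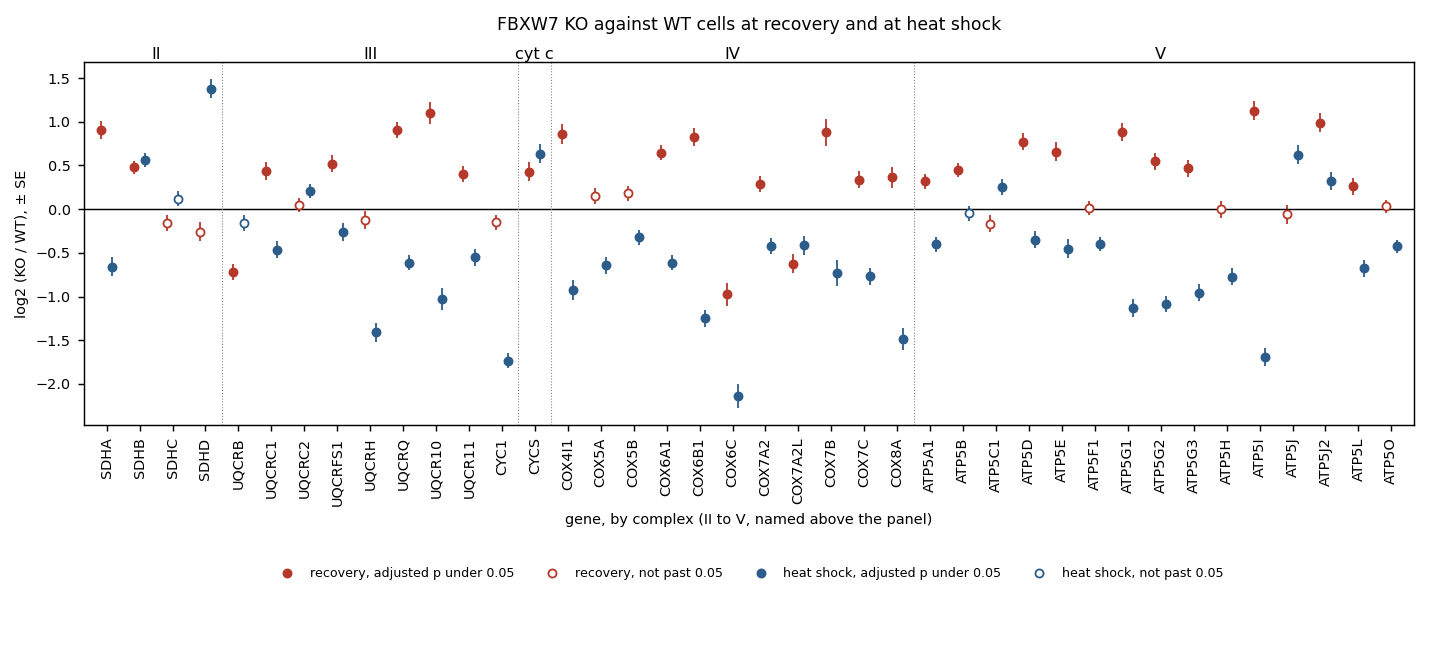
Log2 difference of KO over WT for each of the 40 genes, with standard errors, at recovery in red and at heat shock in blue, ordered by complex. Filled points passed an adjusted p of 0.05; 25 are above 0 at recovery and 30 below 0 at heat shock, and COX6C and COX7A2L are below 0 at both.

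Many members, though not all, encode small proteins, and most member transcripts are short. The changes were therefore set beside those of all coding genes of like length and GC content. In KO recovery the 9 members of 400 to 600 bases had a median log2 change of 0.97, against 0.56 for all coding genes of that length. The 17 members of 600 to 1000 bases stood at 0.72, against 0.32, the 9 of 1000 to 2000 bases at 0.33, against 0.10, and the 3 of 2000 bases and over at 0.61, against −0.11. Short transcripts as a class thus also rose in KO cells, and members were above the class median in each of these 4 classes. The 2 members under 400 bases stood at 0.94, against 0.43. By GC content, the 8 members of 55% and over had a median of 1.18, against 0.24 for coding genes, and the 10 under 45% had 0.34, against −0.34.

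In WT recovery the members of 400 to 2000 bases lay near coding genes of like length. Their medians were −0.30, against −0.28, at 400 to 600 bases, −0.11, against −0.15, at 600 to 1000 bases, and −0.08, against −0.08, at 1000 to 2000 bases. The other classes departed more. The 3 of 2000 bases and over stood at −0.27, against 0 for their class. The 2 under 400 bases, ATP5I and ATP5J2, stood at −0.79, against −0.33, and both fell. All 8 members with a GC content of 55% and over fell, with a median of −0.43, against −0.30 for coding genes of that class. The 10 members under 45% GC stood at 0.15, against 0.26. Across the 40 members, change and GC content had r = 0.331 and rho = 0.362 in KO cells and r = −0.499 and rho = −0.556 in WT cells, given as a description. With smooth offsets for transcript length and GC content in the model, the members' median change was 0.46 in KO recovery and −0.12 in WT recovery, and the median difference of responses was 0.59. Member counts were then 27 higher and 5 lower in KO recovery, 8 and 17 in WT recovery, and 26 and 5 for the difference. They were 22 and 7 for KO against WT at recovery, and 7 and 25 at heat shock. Shares of all genes called in this fit are not given here, so these counts are only a description. Single genes shrank more: ATP5I stood at 1.06 in KO recovery, COX8A at 0.81, COX6B1 at 0.80 and ATP5G1 at 0.73, and ATP5D turned to −0.14 (edgeR adjusted p = 0.130). SDHD moved further, to −1.12 in KO recovery and 0.82 in WT recovery. SDHC, which had not passed, stood at −0.69 in KO recovery (edgeR adjusted p = 9.6e-07), 0.31 in WT recovery (edgeR adjusted p = 0.0029) and −1.003 for the difference of responses (edgeR adjusted p = 4.1e-07). The lengths used were medians over annotated transcripts of a gene. That of SDHC was 460 bases, below its coding length of 507 bases, so its values with offsets are uncertain. ATP5J2, which had not passed in KO recovery, then passed as lower at −0.51 (edgeR adjusted p = 3.9e-05). The part that library preparation has in these length and GC patterns was not tested; poly-A selected or ribosome-depleted RNA was used, and the labels do not say which was used for each library.

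**Figure D5:**
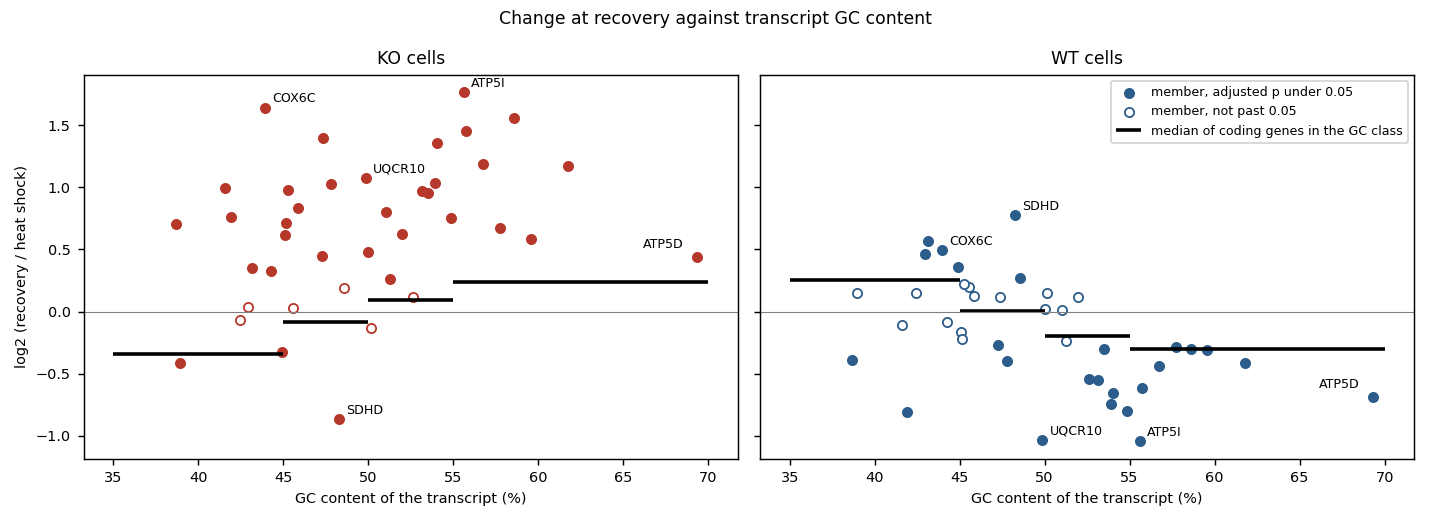
Log2 change of recovery over heat shock against the GC content of the transcript for the 40 genes, in KO cells (left) and WT cells (right); black bars are medians of all coding genes in 4 GC classes. Members lie above the bars in most of the KO panel, and in the WT panel both members and bars fall with GC content.

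Some members share reads or ends with other genes. The pseudogenes COX6A1P2 and ATP5EP2, copies of COX6A1 and ATP5E, were counted at levels near or above their parent genes. COX6A1P2 had 224 and 205 CPM in KO recovery and 56.2 and 27.7 CPM in KO heat shock, where COX6A1, subunit 6A of complex IV, had 89.9 and 83.8 CPM and 44.4 and 45.3 CPM. ATP5EP2 had 185 and 149 CPM in KO recovery and 50.4 and 25.6 CPM in KO heat shock. With the counts of named pseudogenes added to their parents, COX6A1 changed by 1.81 instead of 0.95 in KO recovery and ATP5E, the epsilon subunit of F1, by 1.22 instead of 0.71. Neither then passed as lower in WT recovery (edgeR adjusted p = 0.130 and 0.118), and their differences at heat shock were −1.41 and −0.97 in KO against WT cells, instead of −0.61 and −0.45. The values of COX6A1 and ATP5E are therefore uncertain. SDHAP1, a copy of SDHA, rose by 1.67 ± 0.26 in KO recovery.

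SDHD lies head to head with TIMM8B, which encodes a carrier of proteins across the space between the mitochondrial membranes. The 2 genes are on opposite strands and share 26 exon bases in the annotation. TIMM8B had 103 and 74.3 CPM in KO recovery, against 20.7 and 20.2 CPM in KO heat shock. In WT cells it had 38.3 and 41.5 CPM in recovery, against 66.1 and 71.0 CPM in heat shock. It thus changed by 2.10 ± 0.11 in KO cells and −0.78 ± 0.11 in WT cells, opposite to SDHD in both lines. SDHD also shares 319 exon bases with AP002884.3, a coding gene on the same strand. Before scaling for depth, AP002884.3 had 246 and 205 reads in KO recovery and 97 and 114 in KO heat shock. In WT cells it had 71 and 60 reads in recovery and 133 and 140 in heat shock. ATP5J shares 413 exon bases with GABPA on the other strand, and GABPA, a subunit of an ETS factor that acts on respiratory genes, changed in the same directions as ATP5J, by −0.58 ± 0.11 in KO recovery and 0.46 ± 0.11 in WT recovery. ATP5I shares 579 exon bases with MYL5 on the other strand, which changed by 1.07 ± 0.15 in KO recovery and −1.05 ± 0.17 in WT recovery from at most 16.8 CPM. The libraries were strand-specific, but no source read here states how strand was treated in counting. Reads of such opposite-strand pairs may not have been told apart. Other members, among them ATP5O (655 exon bases), ATP5J2 (177) and COX8A (175), share exons with coding genes on the same strand. Reads of same-strand pairs cannot be told apart by strand.

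The 38 nuclear genes of complex I, which oxidises NADH at the head of the chain, were set beside the members. In KO recovery 31 rose and 3 fell, beside 20.6% and 21.1% of all genes. In WT recovery 5 rose and 22 fell, beside 24.8% and 26%. NDUFA1 and NDUFA3 rose by 2.12 ± 0.11 and 1.93 ± 0.11 in KO recovery, and NDUFB10 changed by −1.01 ± 0.11 in WT recovery. The difference of responses was positive for 33 and negative for 3, beside 28.5% and 27.8% of all genes. In KO cells complex I genes were higher than in WT for 26 and lower for 1 at recovery, beside 31.8% and 31.3% of all genes. At heat shock they were higher for 3 and lower for 26, beside 27.4% and 28.2%. The 5 mitochondrially encoded subunits of complexes III to V that were tested had no call in KO recovery by edgeR, and 1 of them, MT-ATP6, had an unadjusted p under 0.05, with a log2 change of 0.25 ± 0.12. In WT recovery MT-CO2 and MT-CYB changed by −0.60 ± 0.13 and −0.45 ± 0.11, and the other 3 did not pass.

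The 32 assembly factors of complexes II to V were mixed. In KO recovery 12 were higher and 6 lower, beside 20.6% and 21.1% of all genes. In WT recovery 4 were higher and 14 lower, beside 24.8% and 26% of all genes. MNF1, an assembly factor of complex III, and COX14 and SURF1, which act in the assembly of complex IV, rose by 1.40 ± 0.11, 1.16 ± 0.13 and 0.95 ± 0.11 in KO recovery. SCO2, which delivers copper to complex IV, had 31.3 and 26.9 CPM in KO recovery, against 14.7 and 17.6 CPM in KO heat shock. In WT cells it had 11.2 and 9.6 CPM in recovery, against 37.7 and 30.0 CPM in heat shock, and its difference of responses was 2.54 ± 0.18. At recovery KO cells were higher than WT in 19 factors and lower in 8, beside 31.8% and 31.3% of all genes. At heat shock 10 were higher and 10 lower, beside 27.4% and 28.2% of all genes.

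The 12 tested regulators of nuclear respiratory genes were called in both directions. In KO recovery 4 were higher and 5 lower, beside 20.6% and 21.1% of all genes. In WT recovery 3 were higher and 4 lower, beside 24.8% and 26% of all genes. TFAM, which packages and transcribes mitochondrial DNA, had 61.9 and 66.3 CPM in KO recovery, against 109 and 111 CPM in KO heat shock, and changed by −0.78 ± 0.10. PPARGC1B and TFB2M changed by −0.71 ± 0.12 and −0.62 ± 0.11 in KO recovery. PPRC1, a coactivator related to PGC-1 alpha, had 70.6 and 69.9 CPM in WT recovery, against 297 and 241 CPM in WT heat shock, and changed by −1.93 ± 0.10. NRF1 changed by −1.26 ± 0.11 in WT recovery and had a difference of responses of 1.52 ± 0.15. PPRC1 and NRF1 fell in WT cells, where most called members fell, while GABPA rose by 0.46 ± 0.11 there. TFAM and GABPA fell in KO cells, where most members rose. Calls of the 12 ran both ways in each line, and a link to the members was not tested.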

How the data were processed

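The authors deposited 4 tables, each with read counts per gene for a recovery and a heat shock library and the authors' log2 fold change of their normalized values, per the file headers. CASAVA, TopHat and hg19 appear in the submitters' processing notes; how reads were counted, and on which strand, was not stated there. The deposited counts were joined over 55075 genes, and genes listed as NA in both columns were taken as 0. The deposited log2 values were used only to check the columns: they equal the log2 ratio of the first column's share of reads to the second's within 0.001.

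Counts were tested with edgeR 4.0.16 in R 4.3.3 (filterByExpr, TMM scaling, quasi-likelihood F test, Benjamini-Hochberg over 17471 genes, threshold 0.05). Recovery comparisons kept the replicate pair of each table as a block, as the series describes the pairs; KO against WT used group means. The standard error is the log2 change divided by the root of F. Same-numbered libraries did not deviate together across genes, either within a line, where they were blocked (r = −0.0138 in KO and −0.0156 in WT), or between the lines (0.0304 at recovery and −0.0489 at heat shock), so the block rests on the series' description alone. Scripts were tested on simulated data. Transcript length, GC content and overlaps came from a GRCh38 annotation matched by gene ID, and promoters from RefSeq. Named genes are all members; of each other list, up to 4 genes with the lowest p in a comparison, and neighbours or pseudogenes that share reads. The members and lists were chosen with earlier results of these data known. Total counts per library bound the precision, and alternatives are given in the closing section.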

Additional observations from a re-analysis of the deposited data

Results flagged for a closer look

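In 35 members the KO change from heat shock to recovery differed from the WT change by the test of the difference itself (edgeR quasi-likelihood, adjusted over all genes). The same test called 56.3% of all genes tested. The log2 differences, KO change minus WT change, are given by complex. In complex II the difference was 1.55 for SDHA. It was negative in complex II, at −1.64 for SDHD. In complex III the difference was 2.11 for UQCR10, 1.58 for CYC1, 1.52 for UQCRQ, 1.28 for UQCRH and 0.95 for UQCR11. Other genes of complex III had 0.90 for UQCRC1 and 0.78 for UQCRFS1. It was negative in complex III, at −0.57 for UQCRB. In complex IV the difference was 2.07 for COX6B1, 1.86 for COX8A, 1.78 for COX4I1, 1.57 for COX7B and 1.26 for COX6A1. Other genes of complex IV had 1.15 for COX6C, 1.10 for COX7C, 0.78 for COX5A, 0.71 for COX7A2 and 0.51 for COX5B. In complex V the difference was 2.81 for ATP5I, 2.01 for ATP5G1, 1.62 for ATP5G2, 1.42 for ATP5G3 and 1.12 for ATP5D. Other genes of complex V had 1.10 for ATP5E, 0.94 for ATP5L, 0.76 for ATP5H, 0.72 for ATP5A1 and 0.66 for ATP5J2. Other genes of complex V had 0.50 for ATP5B, 0.46 for ATP5O and 0.41 for ATP5F1. It was negative in complex V, at −0.69 for ATP5J and −0.43 for ATP5C1. With GC and length offsets, the call of a difference was lost for UQCR11 (0.09), COX5A (0.08) and COX5B (−0.15). It was also lost for ATP5J2 (−0.22), ATP5O (0.07) and ATP5C1 (−0.20). ATP5B, ATP5F1, ATP5O and ATP5C1 lost this call when 1 library was left out, as given above.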

How the results depend on the processing

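Of the alternatives run, counts of members called moved by more than 1.5 times as follows. With a minimum fold change of 1.5 in the test, KO recovery had 16 members higher and 1 lower, WT recovery 0 higher and 2 lower, the response difference 1 lower, KO against WT at recovery 10 higher and 1 lower, and at heat shock 1 higher and 11 lower. With upper-quartile scaling, 10 members were higher in WT recovery and 8 lower in KO against WT at recovery. With GC and length offsets, 5 members were lower in KO recovery and 7 lower in KO against WT at recovery. Leaving out 1 library each, members lower in KO recovery numbered 1 to 3, higher in WT recovery 1 to 9, with a lower response difference 3 to 7, lower in KO against WT at recovery 3 to 5, and higher at heat shock 4 to 8. Signs turned with GC and length offsets for ATP5D in KO recovery (−0.14) and at heat shock (0.31, called higher, adjusted p = 0.0016), UQCR11 in WT recovery (0.019) and at heat shock (0.0056), COX8A in WT recovery (0.036) and in KO against WT at recovery (−0.0012), COX5B in the response difference (−0.15) and at heat shock (0.073), and ATP5J2 in the response difference (−0.22); among changes not called before, ATP5J2 in KO recovery turned to −0.51 and was called lower. COX8A in WT recovery ranged from −0.66 to 0.035 with 1 library left out. The cause was not tested. The replicate block changed the members lower in KO against WT at recovery to 4, with 25 higher, and left 7 higher and 30 lower at heat shock; without the block the recovery counts were 31 and 3 in KO, 6 and 19 in WT, and 31 and 4 for the difference, with COX8A lost in WT recovery. With 2 libraries a group, small changes are the least certain.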
